A study of Sus scrofa with 12 samples.

Results

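The genes described here are the ZNF zinc finger genes of the pig with a number under 500 in their symbol. They were taken by symbol from the RefSeq annotation of Sscrofa11.1 and numbered 139 of 20648 genes with an mRNA. At least 1 m6A peak lay on an exon of 82 of the 139 genes (59.0%) in any sample, while 56.7% of all annotated mRNA genes had such a peak. In the translated longest coding sequence, 136 of the 139 genes held the C2H2 pattern that gives the family its name, with a median of 9 matches per gene and up to 35. The 3 genes without a match were ZNF185, ZNF330 and ZNF365.

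m6A was mapped by MeRIP-seq, in which RNA fragments of about 100 nt are pulled down with an antibody against m6A and compared with the input RNA. The sperm came from 3 fertile Duroc boars, and each ejaculate was divided between a fresh part (Fs) and a part that was frozen and thawed (Fts). Fs was not cryopreserved with glycerol, and by the study's methods it went straight into liquid nitrogen and was stored cold until RNA extraction, while the labels say only that it was used directly. Fts had been cooled in a lactose and hen's egg yolk extender, given glycerol at 6%, and frozen over liquid nitrogen before thawing. Each group held 3 samples, and each sample had its own IP and input library. The 6 samples came from only 3 boars, so they are not 6 independent animals, and p-values measure the spread between these samples. With the boar as the unit, a sign-flip test could give no p under 0.25. The sign-flip p-values over 6 samples below therefore do not extend to other boars.

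C2H2 zinc finger proteins are the most numerous transcription factors of mammals, and each finger contacts a few bases of DNA. Many of them also carry a KRAB domain, which binds the corepressor TRIM28 and through it the histone methyltransferase SETDB1 to silence genes and transposable elements. In a typical ZNF gene the KRAB domain and the 5′UTR are spread over short upstream exons, and 1 long last exon encodes the fingers and the 3′UTR. In somatic cells m6A is known to be frequent in long exons and around the stop codon, which makes the long last exon of the ZNF genes the place where peaks are usually looked for.

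A few coding peak regions are shown for how samples and groups shared them. They are printed on Sscrofa11.1, 5′ to 3′ on the strand of the mRNA, with each GGACT in capitals, the form of the m6A motif that was searched. The first set shows the coding regions that had a peak in all 6 samples, which lay in ZNF3 at chr3:7973837-7973986 (minus strand, last exon), in ZNF462 at chr1:248101484-248101587 (plus strand, exon 6 of 14) and in ZNF395 at chr14:12140805-12140897 (minus strand, exon 8 of 10). For ZNF3 the 150 bases around a GGACT are given.
ZNF3: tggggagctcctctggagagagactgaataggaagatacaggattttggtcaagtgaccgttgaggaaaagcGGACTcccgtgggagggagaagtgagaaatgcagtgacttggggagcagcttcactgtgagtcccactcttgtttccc
ZNF462: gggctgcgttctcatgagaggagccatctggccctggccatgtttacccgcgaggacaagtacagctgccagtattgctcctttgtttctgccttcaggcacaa
ZNF395: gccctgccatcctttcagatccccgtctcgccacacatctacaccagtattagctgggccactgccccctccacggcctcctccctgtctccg

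The second set shows coding regions with a peak in Fts samples and in no Fs sample, in ZNF217 at chr17:54612711-54612860 (minus strand, 150 of 1512 bases around a GGACT) and in ZNF385B at chr15:85047109-85047258 (minus strand, last exon, 150 of 219 bases). The third set shows coding regions with a peak in every Fs sample and in no Fts sample, in ZNF365 at chr14:65877876-65878025 (plus strand, 150 of 181 bases) and in ZNF131 at chr16:27815118-27815241 (plus strand).
ZNF217: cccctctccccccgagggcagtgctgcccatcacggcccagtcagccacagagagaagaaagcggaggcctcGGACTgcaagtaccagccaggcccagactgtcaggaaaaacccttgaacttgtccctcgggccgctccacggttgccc
ZNF385B: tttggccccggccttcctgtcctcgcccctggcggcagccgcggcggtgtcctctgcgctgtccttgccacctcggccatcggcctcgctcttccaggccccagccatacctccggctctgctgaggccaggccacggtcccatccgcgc
ZNF365: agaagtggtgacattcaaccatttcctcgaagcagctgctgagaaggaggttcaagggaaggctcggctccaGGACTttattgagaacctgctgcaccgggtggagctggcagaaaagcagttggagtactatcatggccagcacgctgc
ZNF131: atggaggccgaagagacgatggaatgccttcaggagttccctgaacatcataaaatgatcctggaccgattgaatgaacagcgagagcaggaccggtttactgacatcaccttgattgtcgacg

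GGACT was thus present in some of these regions and absent from others in each set. It was searched on the strand of the mRNA only. Over all peaks of a sample, a mean of 24.5% of the peaks on the ZNF genes and 22.8% of the peaks on other mRNA genes held a GGACT. The difference of 1.73 percentage points ± 6.05 (SD, n = 6 samples) ran from -8.85 points in Fts2 to 9.63 points in Fs2. It was above 0 in 5 of 6 samples, and an exact sign-flip test gave p = 0.50 (two-sided). Leaving out 1 sample moved it from 0.15 points without Fs2 to 3.85 points without Fts2. The direction turned with other motifs in place of GGACT, to -2.64 points for DRACH and -2.89 points for RRACH. Peaks on the ZNF genes were somewhat longer, with sample medians of 169.5 to 257 bp against 157 to 175 bp on other mRNA genes. In windows of 100 bp around the midpoint of each peak the difference was 0.048 points (exact sign-flip p = 1.0).

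A peak on an exon of the gene and on the same strand was counted, with at least 1 bp of overlap. The 6 lists together placed 313 peaks on the ZNF genes, and none of these also lay on another mRNA gene. Each peak has a score, which is 10 times the -log10 of its p-value in the test of IP against input. The scores were low in general. The median was 12.7 on the ZNF genes and 12.6 on other mRNA genes, and 160 of the 313 peaks (51.1%) were below the score of 13.0 that stands for a p-value of 0.05. On other mRNA genes this share was 50.8%. A peak also needs RNA of its gene, so less RNA and less m6A cannot be told apart in these lists, and neither can fewer cells of a type and less RNA per cell.

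The number of peaks on the ZNF genes differed between Fs and Fts by less than the spread between samples. Fs1, Fs2 and Fs3 had 54, 60 and 50 peaks, and Fts1, Fts2 and Fts3 had 46, 45 and 58, so the groups overlapped. The means were 54.7 ± 5.03 and 49.7 ± 7.23 (SD, n = 3 each; exact permutation test, two-sided p = 0.40, where the smallest p that 3 against 3 samples allow is 0.10). The difference of -5 peaks became -9.17 to -2.33 when 1 sample was left out. It turned to 1 among peaks with a score of at least 20 or of at least 50. The genes with a peak numbered 42, 47 and 38 in Fs and 38, 35 and 49 in Fts (p = 0.80, exact permutation test). A gene with a peak had 1.29 ± 0.0205 peaks in Fs and 1.23 ± 0.0529 in Fts (n = 3 each, exact permutation p = 0.30).

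The lists as a whole held 8015, 10378 and 10335 peaks in Fs and 9682, 11510 and 11982 in Fts, and these overlapped. The share of the peaks on mRNA exons that lay on the ZNF genes was lower in each Fts sample than in any Fs sample. In Fs the share was 0.792%, 0.680% and 0.573%, and in Fts it was 0.542%, 0.434% and 0.543%. The difference of -0.18 percentage points reached the smallest p possible (exact permutation p = 0.10, n = 3 each), which does not pass 0.05. The list of Fs1, the shortest, gave the highest share. With the 8015 highest scoring peaks of each list the difference was -0.12 points and the groups overlapped (exact permutation p = 0.30).

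**Figure D1:**
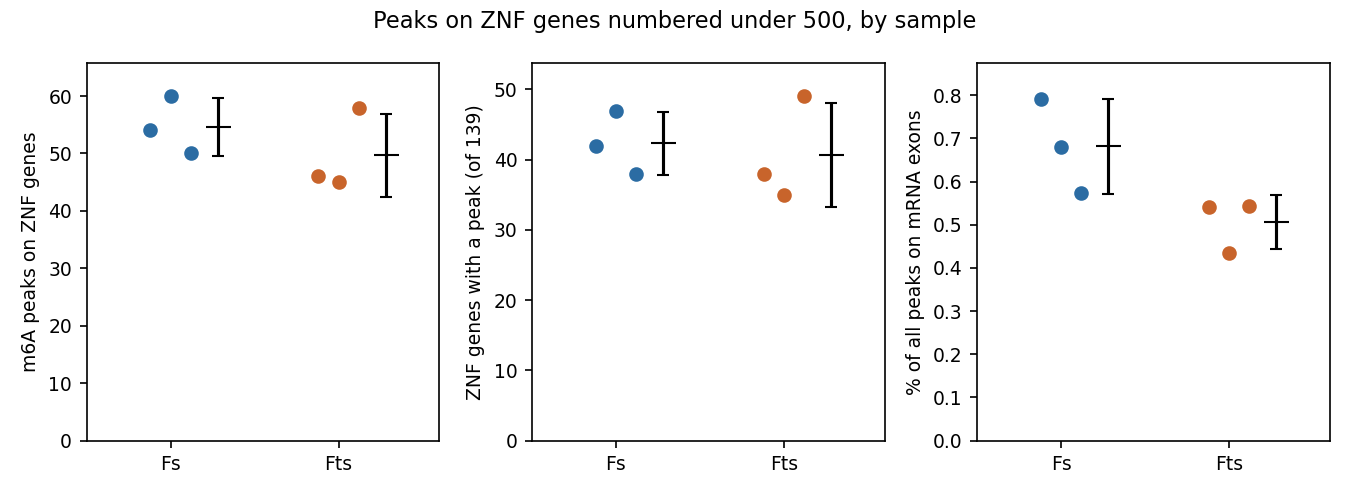
Peaks on the ZNF genes numbered under 500 by sample: the number of peaks (left), the number of the 139 genes with a peak (middle) and the percentage of all peaks on mRNA exons (right). Points are samples, and the black marks are means with SD (n = 3); the groups overlap in the left and middle panels, while the Fs samples lie between 0.573% and 0.792% and the Fts samples between 0.434% and 0.543% in the right panel.

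Peaks with a score of at least 50 (p of 1e-05 or less) made up 18.5%, 15.0% and 10% of the peaks on the ZNF genes in Fs and 21.7%, 24.4% and 10.3% in Fts. The groups overlapped, and the means of 14.5% ± 4.28 and 18.8% ± 7.48 did not differ beyond the spread (n = 3 each, exact permutation p = 0.40). The difference of 4.34 points became 1.54 to 8.59 points when 1 sample was left out. On other mRNA genes this share was 16.5% ± 1.49 in Fs and 23.6% ± 3.55 in Fts. At a score of at least 50 only 51 peaks on the ZNF genes were left over the 6 lists, which limits what this comparison can show.

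Peaks were sparse on the long last exon of the ZNF genes. In the longest coding transcript the last exon took a median of 67.6% of the length in the ZNF genes and 41.7% over all mRNA genes with more than 1 exon. Yet of the peaks on the ZNF genes the last exon held 22.2%, 20.0% and 20.0% in Fs, and 19.6%, 13.3% and 20.7% in Fts. For other mRNA genes the mean was 19.5%, and the difference of -0.17 percentage points ± 2.49 (n = 6) was within the spread (exact sign-flip p = 0.84). It was -7.47 points among peaks with a score of at least 20 (exact sign-flip p = 0.094) and -9.65 points among those with a score of at least 50 (exact sign-flip p = 0.031). The direction turned to 3.16 points when peaks were placed by their midpoint (exact sign-flip p = 0.16), to 0.78 points when 0.5 or more of the peak had to lie on exons and to 0.69 points without Fts2.

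Per length, the 82 ZNF genes with a peak had a mean of 0.0369 peaks per kb in 262 kb of last exons and 0.214 peaks per kb in 171 kb of other exons. The log2 ratio of last to other exons was -2.16, -2.35 and -2.37 in Fs and -2.55, -3.31 and -2.43 in Fts. It was below 0 in 6 of 6 samples, with a mean of -2.53 ± 0.40 (n = 6), and the exact sign-flip test gave p = 0.031, the smallest that 6 samples allow. The same direction held for other mRNA genes, with a mean log2 ratio of -2.07 ± 0.12, and for the 69 ZNF genes numbered 500 or more with a peak, with -2.19 ± 0.72. The ratio of the ZNF genes under 500 was below that of other mRNA genes in 6 of 6 samples, by -0.46 ± 0.33 (exact sign-flip p = 0.031, or 0.094 adjusted over 3 gene groups compared, a comparison added after the values were seen). It differed from that of the ZNF genes numbered 500 or more by -0.34 ± 0.67 (exact sign-flip p = 0.28), and from that of the ZBTB genes, another zinc finger family, with a mean of -1.61 ± 0.64, by -0.92 ± 0.91, lower in 5 of 6 samples (exact sign-flip p = 0.094).

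A short exon meets a peak of a given length more easily than its length alone would give. The share of bases under a peak does not have this property. It ran from 1.17% to 2.96% for the last exons of the ZNF genes and from 3.67% to 5.76% for their other exons, and the last exons were lower in 6 of 6 samples. The mean log2 ratio was then -1.14 ± 0.61, closer to 0 than the ratio by peak number, with an exact sign-flip p of 0.031 (n = 6). Within coding bases alone the mean log2 ratio was -0.65 and the call was lost (exact sign-flip p = 0.063), since in Fs1 the last exons had 3.81% and the other exons 3.65% of their coding bases under a peak. For other mRNA genes the mean log2 ratio over all exon bases was -0.51 ± 0.13, for the ZNF genes numbered 500 or more -0.99 ± 0.85 and for the ZBTB genes -0.72 ± 0.67. By this measure the ZNF genes under 500 were below other mRNA genes in 6 of 6 samples, by -0.63 ± 0.53 (exact sign-flip p = 0.031, or 0.094 adjusted over the 3 gene groups). They were below the ZNF genes numbered 500 or more by -0.14 ± 0.66, in 4 of 6 samples (exact sign-flip p = 0.63), and below the ZBTB genes by -0.42 ± 0.995, also in 4 of 6 (exact sign-flip p = 0.41).

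**Figure D2:**
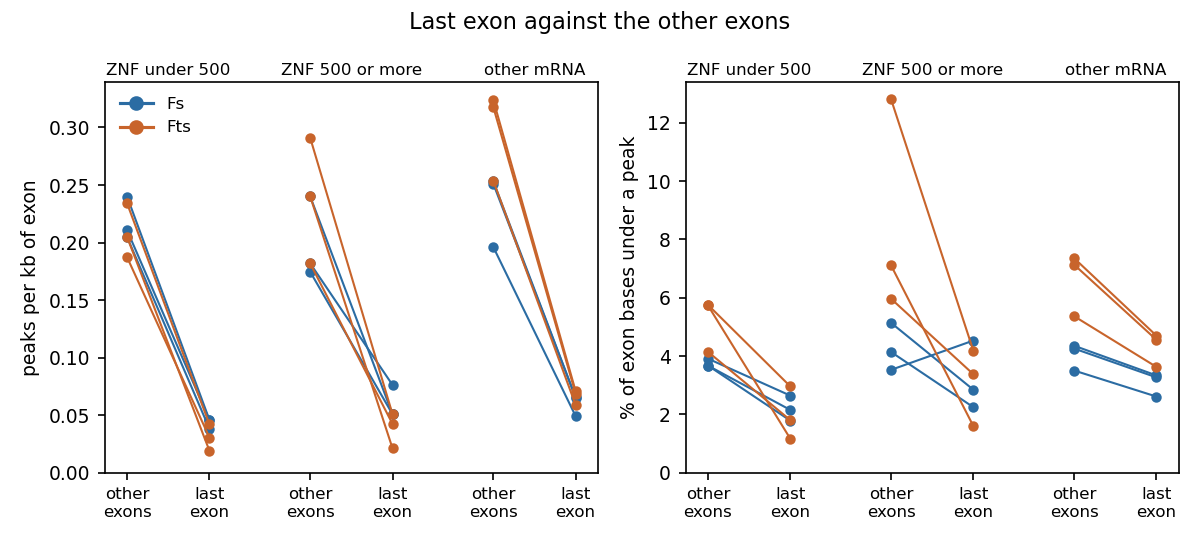
Last exons against the other exons of the longest coding transcript, as peaks per kb (left) and as the percentage of exon bases under a peak (right), for genes with a peak in any sample. Each line is 1 sample (blue Fs, orange Fts); for the ZNF genes numbered under 500 every line falls in both panels, from means of 0.214 to 0.0369 peaks per kb, and the other mRNA genes fall too.

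By peak midpoints, the zinc finger array was low in peaks as well. In a typical ZNF gene the fingers lie in the last exon, so this is not a separate result from the last-exon ratio. The share of array bases under a peak was not measured, and no other gene group was compared. The array was taken as the stretch from the first to the last C2H2 match, which includes the spacers and spans nearly the whole coding sequence in genes with far apart fingers such as ZNF106, ZNF236 and ZNF462. In the genes with a peak the arrays covered 108 kb and the other coding sequence 78.1 kb. Over the 6 samples 45 peak midpoints fell in arrays and 120 in the other coding sequence. The arrays held 10, 8 and 8 midpoints in Fs and 4, 8 and 7 in Fts, against 18, 21 and 15 and against 20, 20 and 26 outside them. The log2 ratio per kb was below 0 in 6 of 6 samples, with a mean of -1.85 ± 0.54 (exact sign-flip p = 0.031, n = 6). When only peaks with a score of 20 or more were kept, the ratio was -1.41 and the call was lost (exact sign-flip p = 0.063), and at a score of 50 or more it was -1.13 (exact sign-flip p = 0.28).

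In the 5′UTR the share of peaks was higher than on other mRNA genes. The midpoints of the peaks on the ZNF genes lay in the 5′UTR in 17.1% of cases (mean of 6 samples) and in that of other mRNA genes in 4.55%. The share was 16.7%, 16.7% and 22.0% in Fs and 17.4%, 17.8% and 12.1% in Fts, above that of other mRNA genes in 6 of 6 samples. The 5′UTR made up 14.7% of the transcript length in the ZNF genes with a peak and 10.1% in the other genes with a peak. Within 100 nt of the start codon lay 10.9% of the peaks on the ZNF genes, on 3.69% of the length. On other mRNA genes this share was 7.80%. The ZNF genes were higher in 5 of 6 samples, by 3.06 ± 3.43 points (exact sign-flip p = 0.094, or 0.14 adjusted over the 6 features compared). They were lower in Fs3, with 6.0% against 8.0%. Coding sequence away from both codons held 47.2% of the peaks on the ZNF genes and 67.6% on other mRNA genes, again with the same direction in 6 of 6 samples.

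The 5′UTR and coding differences of 12.5 ± 3.05 and -20.3 ± 4.94 percentage points each gave an exact sign-flip p of 0.031 (n = 6), or 0.063 after adjustment over the 6 features compared, so neither passed the adjusted threshold of 0.05. The 3′UTR took 38.1% of the length of the ZNF genes with a peak and only 5.88% of their peaks, and 35.8% and 7.16% in other mRNA genes. In the ZNF genes the 3′UTR share was 7.41%, 8.33% and 10% in Fs and 4.35%, 0% and 5.17% in Fts. These groups did not overlap, but they rest on 19 peaks. The share on other mRNA genes did not overlap either and was also lower in Fts, with 7.53%, 7.85% and 8.21% in Fs against 6.59%, 6.36% and 6.44%. Only 6 peaks lay within 100 nt of a stop codon. The midpoints of 17.2% of the peaks on the ZNF genes and of 9.40% on other mRNA genes lay outside the longest coding transcript, in exons of other transcripts or in introns.

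**Figure D3:**
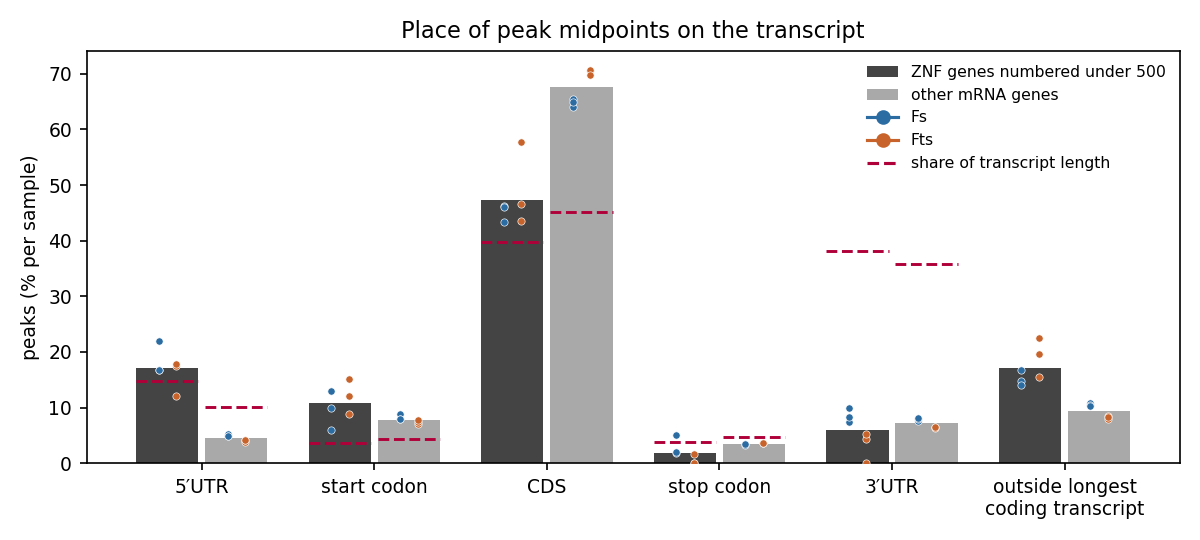
Place of peak midpoints on the longest coding transcript for the ZNF genes numbered under 500 (dark bars) and other mRNA genes (light bars), as the mean percentage of 6 samples, with 1 point per sample (blue Fs, orange Fts) and the share of transcript length as a dashed line. The 5′UTR bar is 17.1% for the ZNF genes and 4.55% for other genes, and the 3′UTR bars of both lie far under their length share.

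The peaks fell into 153 regions when the 6 lists were merged. Of these, 82 regions (53.6%) were present in 1 sample only and 7 (4.58%) in all 6, against 47.3% and 3.31% of the regions on all mRNA genes. The regions seen in Fs samples only numbered 66 (43.1%, against 32.9% over all mRNA genes), and those seen in Fts samples only 57 (37.3%, against 43.9%). A region with a peak in every Fs and no Fts sample was found 8 times (5.23%, background 3.63%), and one with a peak in every Fts and no Fs sample 7 times (4.58%, background 6.82%).

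**Figure D4:**
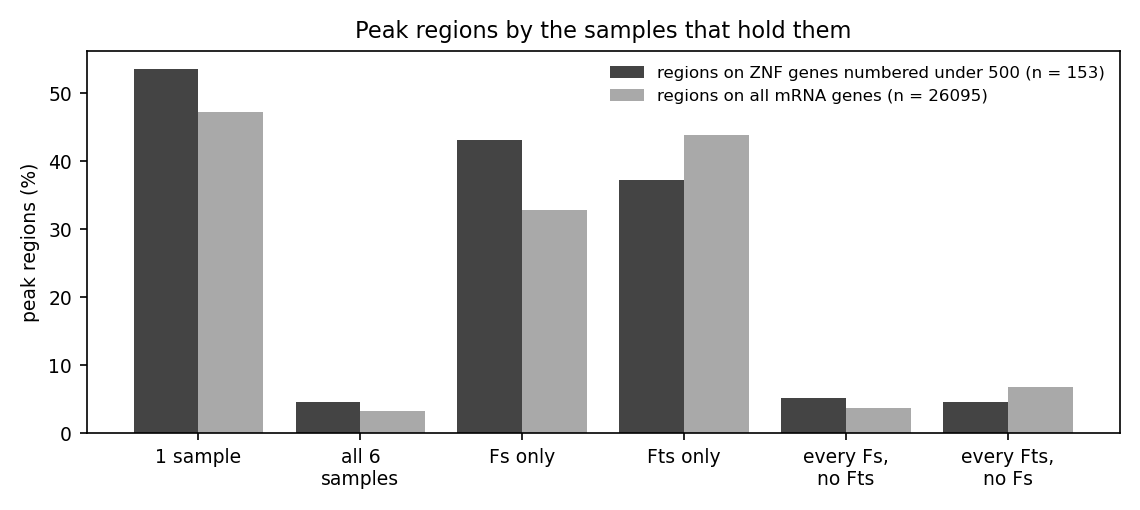
Percentage of merged peak regions by the samples that hold them, for 153 regions on the ZNF genes numbered under 500 (dark) and 26095 regions on all mRNA genes (light). Regions of 1 sample are the most common kind in both, at 53.6% and 47.3%.

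A peak in every sample was found on 11 of the 139 ZNF genes, and 7.66% of all mRNA genes had one. Most of the regions shared by all 6 samples lay upstream of the last exon. ZNF41, a KRAB zinc finger gene, had the highest median score among them. Its only region, chrX:41983711-41983876 on the minus strand, covers part of exon 1 of 7 in the 5′UTR. The scores were 78.0, 96.9 and 87.9 in Fs and 44.3, 71.6 and 42.8 in Fts, so every Fs sample was above every Fts sample. A GGACT lies 28 bases from the 5′ end of this region, within chrX:41983832-41983860.
ZNF41: cttagggctccgGGACTgagtttaacaga

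ZNF488, known for a role in oligodendrocyte differentiation, had its shared region in exon 1 of 2, at chr14:88474122-88474272 in the 5′UTR, with scores of 60.2, 82.7 and 34.5 in Fs and 11.3, 21.4 and 19.3 in Fts. Here too the Fs scores did not overlap those of Fts. ZNF462, a very large chromatin protein needed in the developing nervous system, had the region printed above, inside its array, with 55.9, 32.3 and 24.7 in Fs and 7.91, 38.0 and 32.7 in Fts. These groups overlapped. Over all mRNA genes, every Fs score was above every Fts score in 22.9% of the regions present in all 6 samples, and every Fts score above every Fs score in 13%. Scores also depend on read depth. The study's sequencing summary lists more mapped reads for each Fs IP library than for any Fts IP library, and the part of depth in these scores was not tested.

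ZNF3 was the only one of the 7 with its shared region in the last exon. Its scores were 3.46, 26.1 and 17.2 in Fs and 78.0, 36.7 and 8.76 in Fts, with Fts1 highest and Fs1 near the lowest score that the lists hold. ZNF395, a transcription factor that binds papillomavirus DNA, scored 41.5, 46.4 and 10.5 in Fs and 11.7, 3.27 and 26.1 in Fts. ZNF444, a SCAN domain protein, had scores of 27.9, 61.6 and 41.9 against 47.5, 10.7 and 21.9. ZNF366, known in dendritic cells as DC-SCRIPT, had scores of 32.9, 10.3 and 7.34 against 20.7, 11.3 and 27.9. The regions of ZNF444 and ZNF366 lay outside the longest coding transcript, and the groups overlapped in all 4 genes.

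The 10 genes taken for the most peaks, with ties settled by summed score, ranged from ZNF444, with a transcript of 1623 nt, to ZNF462, with 23283 nt. The last of them, ZNF488, had 7 peaks, as did ZNF311, ZNF318 and ZNF385A. ZNF106, a zinc finger protein that binds RNA, led with 4, 2 and 4 peaks in Fs and 2, 2 and 2 in Fts, a total of 16 over 22 exons. Its regions changed more than its number of peaks. In exon 8 a region at chr1:128937894-128937965 scored 22.2, 80.3 and 73.5 in Fs, while Fts had no peak there. In exon 2, at chr1:128913028-128913113 close to the start codon, a region scored 90.8, 160 and 125 in Fts, and among the Fs samples only Fs1 had a peak, with 74.8.

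ZNF341 had 4, 2 and 1 peaks in Fs and 2, 3 and 1 in Fts. Its strongest region, in exon 1 at chr17:37223978-37224098, scored 483 in Fs1, 595 in Fs2, 92.0 in Fts1 and 110 in Fts2 and was missing from the third sample of each group. ZNF148, a Krüppel-type factor also called ZBP-89, had 1, 0 and 0 peaks in Fs and 4, 3 and 1 in Fts, and the groups met at 1 peak. ZNF410, known as a dedicated activator of the CHD4 gene, had 2, 3 and 0 peaks in Fs and 0, 1 and 2 in Fts.

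More peaks in every Fts than in every Fs sample were found for 6 of the 82 ZNF genes with a peak. The background over all 11701 mRNA genes with a peak was 8.98%. With scores of at least 20 or of at least 50, the count was 2. The 6 genes were ZNF217, ZNF215, ZNF207, ZNF219, ZNF438 and ZNF385B, and none of them had a peak in Fs. ZNF217, which recruits the CoREST corepressor and is amplified in tumours, had 1, 2 and 2 peaks in the Fts samples. Its main region in exon 5 of 7, chr17:54611806-54613317, scored 91.1, 144 and 58.3 and was the only one of the 6 genes' regions with a score over 50 in every Fts sample.

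ZNF215, a gene of an imprinted chromosome region in humans, had 2, 1 and 1 peaks in Fts, with best scores of 51.0, 227 and 77.0, but these came from 2 regions that each had a peak in 2 of the Fts samples. ZNF207, also called BuGZ, which binds the spindle checkpoint protein BUB3, had 1, 2 and 1 peaks with best scores of 12.9, 30.5 and 4.11, again from 2 regions with a peak in 2 of the Fts samples each. ZNF438 had 1 peak in each Fts sample with scores of 36.3, 10.5 and 26.0. ZNF385B had 1 in each with 10.3, 14.8 and 15.7. ZNF219 had 1, 1 and 2 peaks with best scores of 5.80, 6.79 and 10.5, all of them below the score of 13.0.

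More peaks in every Fs than in every Fts sample were also found for 6 of the 82 genes, where the background was 5.36%, and with scores of at least 20 or of at least 50 the count was 1. These were ZNF385A, ZNF131, ZNF397, ZNF428, ZNF473 and ZNF365. ZNF385A, a p53 cofactor that binds RNA, had 2, 3 and 2 peaks in Fs and none in Fts, with best scores of 20.9, 18.5 and 41.8. Its region in every Fs sample lay in the 3′UTR, while its stronger regions in exons 5 and 6 were each found in 1 or 2 of the samples.

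ZNF473, a protein of the U7 snRNP pathway that processes histone mRNA, had 1 peak in each Fs sample in exon 3 next to the start codon, with scores of 18.2, 6.06 and 14.2. The peak was 64 bp long in Fs2 and only 3 bp in Fs1 and in Fs3. ZNF131, a BTB domain factor, had 1, 1 and 2 peaks with best scores of 8.81, 9.19 and 4.90. ZNF365, a centrosomal protein, had 1 peak in each with 9.73, 6.07 and 4.44, and ZNF428 had 1 in each with 3.70, 39.3 and 4.72. Most of these scores are below 13.0.

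ZNF397, a zinc finger protein found at centromeres, kept peaks in all 6 samples but in other places. It had 2 peaks in each Fs sample and 1 in each Fts sample. In its last exon a 3′UTR region at chr6:119128509-119129146 scored 34.1, 21.5 and 33.3 in Fs and had no peak in Fts. A region at chr6:119126233-119126435, in the last exon of another transcript, scored 21.0, 10.2 and 6.09 in Fts and had no peak in Fs. No region of ZNF397 was shared by the groups.

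**Figure D5:**
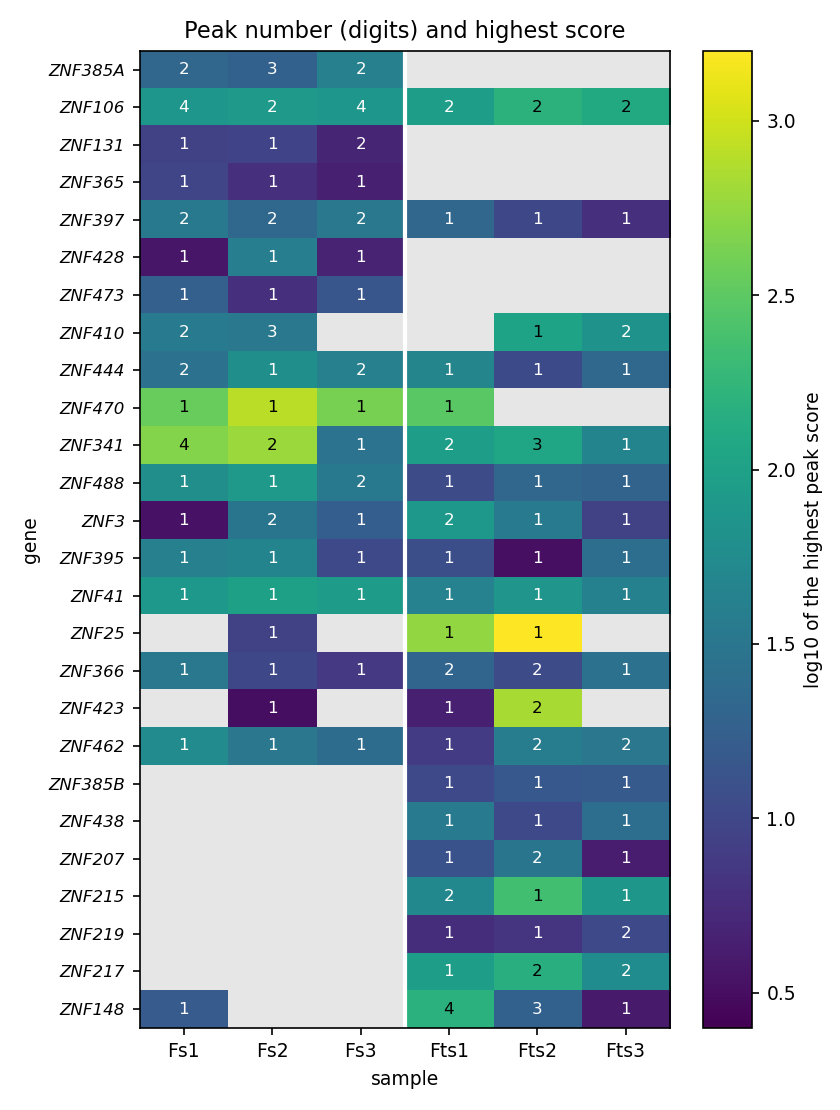
Number of peaks (digits) and log10 of the highest peak score (colour) by sample for the ZNF genes with the most peaks, with non-overlapping numbers, with a region in all 6 samples or with the highest scores; grey means no peak. Genes run from more peaks in Fs (top) to more peaks in Fts (bottom), and the 6 genes from ZNF385B to ZNF217 are grey in all Fs samples.

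The highest single scores came from narrow regions that were not found in every sample. ZNF25, a KRAB zinc finger gene, had a region of 127 bp in exon 3, at chr14:60962605-60962731 close to its start codon, which scored 551 in Fts1 and 1583 in Fts2 and had no peak in Fts3 or in Fs. ZNF470 had a region of 40 bp at chr6:60868716-60868755 with scores of 350, 806 and 427 in Fs and 305 in Fts1, and none in Fts2 and Fts3. The peak was 40 bp long in Fts1 and only 7 bp in each Fs sample. ZNF423, a partner of SMAD and early B cell factors, had a peak of 52 bp with a score of 674 in Fts2 alone. Fts3 held no peak on the ZNF genes above 125. Fs3 and Fts3 thus lacked the strongest region of ZNF341, and Fts3 that of ZNF25 as well.

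A list of 34 ZNF genes whose function is in part known was followed, of which 30 were in the annotation and 25 had a peak (background 56.7% of all annotated mRNA genes). The list was chosen with earlier results of these data known, so its counts are not an independent comparison with the backgrounds. A peak in every sample was found for 5 of the 30 (background 7.66%), ZNF106, ZNF366, ZNF395, ZNF444 and ZNF462. The numbers did not overlap for 5 others, all already counted above. They were higher in Fts for ZNF207 and ZNF217 and higher in Fs for ZNF131, ZNF365 and ZNF473, beside the backgrounds of 8.98% and 5.36%. Of the list, 16, 17 and 13 genes had a peak in Fs1, Fs2 and Fs3 and 11, 13 and 15 in Fts1, Fts2 and Fts3, and these overlapped. At the other end, ZNF292, ZNF335 and ZNF445 had a single peak over the 6 samples.

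Of 29 corepressor and silencing genes, among them partners of KRAB zinc finger proteins, 28 were annotated and 25 had a peak (background 56.7%). This list too was chosen with earlier results of these data known, so its counts are not an independent comparison with the backgrounds. Gene length was not taken into account. TRIM28 itself had 1 peak in Fs1 and 1 in Fts2. SETDB1 had 1, 1 and 2 peaks in Fs and 1, 2 and 0 in Fts. More peaks in every Fts than in every Fs sample were found for 7 of the 25 (background 8.98%), namely ATF7IP, CHD4, KDM1A, MPHOSPH8, MORC3, ATRX and TRIM24. TRIM24 had no peak in Fs and 4, 6 and 4 in Fts, and ATF7IP had 1, 2 and 2 peaks in Fs and 5, 6 and 4 in Fts. Only CBX5, which encodes the heterochromatin protein HP1 alpha, had more peaks in every Fs sample, with 2, 5 and 2 against 1, 1 and 1 (background 5.36%). The list as a whole had 18, 25 and 20 peaks in Fs and 35, 49 and 34 in Fts. All mRNA genes together had 6818, 8819 and 8724 peaks on their exons in Fs and 8482, 10369 and 10681 in Fts, and whether the list differs from them or from the ZNF genes was not tested.

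Peaks on marker genes of the cells that semen can hold were counted beside this, although a peak is not a level of expression. By the study's methods the sperm pellets had been treated with Triton X-100, a detergent used to remove somatic cells, before RNA extraction. The marker lists too were chosen with earlier results of these data known. Of 19 genes of sperm and spermatids, 10 had a peak (background 56.7% of all annotated mRNA genes). SPACA1 and HOOK1 had one in all 6 samples (background 7.66%). The acrosin gene ACR had 2 peaks in each Fs sample and none in Fts (background 5.36%). The zona pellucida binding protein gene ZPBP had 1, 2 and 2 peaks in Fts and none in Fs (background 8.98%). Of the 19 genes, 9 had no peak in any sample, PRM1, TNP1, ODF1 and AKAP4 among them. Summed over the list, the Fs samples had 4, 5 and 4 peaks and the Fts samples 7, 11 and 8. A peak was found on 3 of 5 genes of earlier germ cells and 4 of 6 of leukocytes. For epithelium it was 4 of 5, and for Sertoli and Leydig cells 4 of 5 (background 56.7% for each list). In these 4 lists the numbers did not overlap for DDX4, with 4, 3 and 2 peaks in Fts and none in Fs, for KRT8, with 3, 4 and 2 in Fts and none in Fs, and for SOX9, with 1 in each Fts sample and none in Fs (3 genes of 15 with a peak, background 8.98%). The summed peaks were 1, 0 and 0 in Fs and 4, 3 and 4 in Fts for earlier germ cells, 1, 1 and 2 against 6, 7 and 6 for epithelium, 1, 3 and 5 against 2, 3 and 3 for leukocytes, and 0, 2 and 2 against 1, 2 and 1 for Sertoli and Leydig cells. LCP1 and KRT8 had the most peaks of the leukocyte and epithelial genes, and DAZL, SYCP3, CD14, CSF1R, EPCAM and AMH had none. For SOX9 the study reports less mRNA in Fts together with higher methylation. The part of other cells in the results above was not tested.

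By chromosome, the ZNF genes under 500 are concentrated on chromosome 6, with 38 genes, of which 17 had a peak. On chromosome 3, 11 of 12 genes had one, and on chromosome X only ZNF41 of 9 genes. Over the whole annotation 56.7% of mRNA genes had a peak. Whether these counts differ from those of other genes on the same chromosomes was not tested. ZNF genes with a peak had a median transcript of 4994 nt and those without one of 3808 nt. The last exon took similar shares of both, with medians of 66.2% and 69.0%. Neighbouring ZNF genes share long stretches of sequence. How reads that match several of them were counted is not given in the sources used here, so peaks in arrays are uncertain. The part of such reads in the low array ratio was not tested.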

How the data were processed

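MeRIP-seq was made from 3 Fs and 3 Fts samples (12 libraries). The authors trimmed reads with cutadapt 1.9.3, aligned them with HISAT2 to susScr11, called peaks per sample with MACS against the input of that sample, and kept peaks on mRNAs. The deposited score of each peak was read as 10 times -log10 p. Read depth was not used here. A further list holds the authors' own comparison of the groups and was not used. From here, peaks were placed on RefSeq Annotation Release 106 of Sscrofa11.1 (Python 3.11.15, NumPy 2.4.6, samtools 1.23.1). Arrays were found by translating the RefSeq coding sequence from the genome. Exact permutation (3 against 3) and sign-flip (6 samples) tests were two-sided, and 0.5 peak was added before a log2 ratio. The steps were tested on simulated data. The members and lists were chosen with earlier results of these data known. Genes named were the 10 with the most peaks, up to 10 per direction with non-overlapping numbers, those with a region in all 6 samples, the 5 highest scores, and a list of known roles. Alternatives were score thresholds, equal list lengths, overlap and transcript rules, joined peaks, motifs, samples left out and the replicate block.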

Additional observations from a re-analysis of the deposited data

How the results depend on the processing

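The low last-exon ratio kept its direction under every alternative run for it. With coding bases it was -0.65 (exact sign-flip p = 0.063). Leaving out 1 sample gave -2.57 to -2.33 for this ratio and -1.96 to -1.70 for the array ratio, all with an exact p = 0.063, the smallest that 5 samples allow. The array ratio was -1.41 at a score of at least 20 and -1.13 at a score of at least 50. The last-exon share minus that of other genes was -9.65 points at a score of at least 50 (exact sign-flip p = 0.031), but 0.78 where 0.5 or more of the peak had to lie on exons, 3.16 by midpoints, and -0.70 to 0.69 without 1 sample. At a score of at least 20, Fts minus Fs was 1 for peaks, 0.67 for genes with a peak and 0.019 for peaks per gene, and at a score of at least 50 it was 1 for peaks and 1.33 for genes. Without 1 sample the difference in peaks ran from -9.17 to -2.33. The difference in genes with a peak then ran from -5.83 to 1.17, above 0 without Fs2 or Fts2. At scores of at least 20 and 50, respectively, the genes with non-overlapping numbers fell to 2 and 2 (higher in Fts) and 1 and 1 (higher in Fs), and the regions in all 6 samples to 1 and 0. With lists of 8015 peaks each, 4 genes were higher in Fts and 2 in Fs. The GGACT difference was -3.53 points at a score of at least 20, -2.64 for DRACH, -2.89 for RRACH and 0.15 to 3.85 without 1 sample. For the last-exon ratio, transcript bases (-1.14), coding bases, peak midpoints (-2.41) and leaving out members without a C2H2 match (-2.50) were added after seeing the data, the last also for 3 other results. Same-numbered samples did not deviate together (correlations of 0.010, -0.014 and 0.013), and a replicate block kept the difference of -5 peaks (exact sign-flip p = 0.75, where 3 pairs allow no p under 0.25) and changed no other call.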
